A study of Mus musculus with 25 samples.

Results

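Heterotrimeric G proteins are the relay between seven-helix receptors and the enzymes and channels inside the cell. An activated receptor makes the alpha subunit exchange GDP for GTP, alpha and the beta-gamma dimer part, and each acts on its own effectors until the alpha subunit hydrolyses its GTP. Rgs proteins (regulators of G protein signalling) speed up that hydrolysis and so shorten the signal. In neurons the Gi/o branch is known for damping transmitter release and opening potassium channels, and in astrocytes Gq-coupled and Gi-coupled receptors are known to evoke calcium signals.

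The genes described here are the mouse protein-coding genes that encode alpha, beta and gamma subunits or carry an Rgs symbol followed by digits. They were taken by symbol, and 51 of the 36528 gene IDs in the deposited files matched: 13 alpha, 5 beta, 12 gamma and 21 Rgs genes. The symbol rule itself uses no measured value.

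RNA was sequenced from brain cells of mice aged 6 months. The groups were 6 libraries of hMAPT-P301S neurons, 8 of non-transgenic (non-Tg) neurons, 5 of hMAPT-P301S astrocytes and 6 of non-Tg astrocytes. hMAPT-P301S mice express P301S-mutant human tau from a transgene; its promoter is not stated in the labels, and the non-Tg mice were littermates. Neurons were sorted by NeuN and astrocytes by Gfap; Cd11b+ myeloid cells of the same experiment were not analysed here. Nothing in the labels tells single animals from pools or ties neuron to astrocyte libraries, so the p-values reflect only how these samples vary, which may be technical.

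The libraries held 1245964 to 4453555 counts, and 3 counts, used here as the floor, equal 0.674 to 2.41 CPM, the count of a gene scaled to library size with TMM factors. Comparisons between genes use the authors' nRPKM, which also divides by gene length. The sorts matched their labels by marker genes: neurons were lower in 10 of 10 astrocyte markers in both genotypes, and Rbfox3, the gene of NeuN, averaged 69.2 ± 13.5 CPM in P301S neurons and 72.7 ± 22.3 in non-Tg neurons, against 4.11 ± 4.23 in P301S and 5.1 ± 4 in non-Tg astrocytes (SD; n = 6, 8, 5 and 6). The full list of 10 neuron markers set the sorts apart less than Rbfox3 did. At an adjusted p under 0.05 (edgeR), 7 were higher in P301S neurons and 8 in non-Tg neurons, and 0 were lower. They summed to 2209 ± 273 CPM in P301S neurons and 942 ± 267 in P301S astrocytes (SD). In non-Tg mice the sums were 2271 ± 138 CPM in neurons and 664 ± 65.2 in astrocytes. Astrocyte libraries also held other glia: summed over 8 oligodendrocyte markers they had 388 to 1302 CPM (P301S) and 202 to 531 CPM (non-Tg), against 68.7 to 82.1 CPM in P301S neurons and 41.7 to 87.5 CPM in non-Tg neurons. Gfap, the antigen of the astrocyte sort, was itself higher in P301S than non-Tg astrocytes (log2 change 2.23, adjusted p = 0.000512, edgeR). Mapt, the mouse tau gene, did not pass the test for genotype in astrocytes (log2 change 1.005, adjusted p = 0.224, edgeR) or neurons (-0.02, adjusted p = 0.989, edgeR). Between cell types, Mapt was lower in P301S neurons than P301S astrocytes (log2 change -0.82, adjusted p = 0.0311, edgeR). It did not differ in non-Tg mice (0.20, adjusted p = 0.611, edgeR).

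RefSeq promoter sequences on GRCm38.p6 were at hand for 38 of the 51 genes. They are shown as the 250 bases before the start, 5′ to 3′ on the gene's strand, for the 5 of 18 members that differed in the same direction between neurons and astrocytes in both genotypes and whose window lies outside the gene's own span. Capitals mark GC boxes (GGGCGG, or CCGCCC where it lies on the other strand) and CCAAT boxes (CCAAT, or ATTGG on the other strand).
Gna13, chr11:109362544-109362793, plus strand: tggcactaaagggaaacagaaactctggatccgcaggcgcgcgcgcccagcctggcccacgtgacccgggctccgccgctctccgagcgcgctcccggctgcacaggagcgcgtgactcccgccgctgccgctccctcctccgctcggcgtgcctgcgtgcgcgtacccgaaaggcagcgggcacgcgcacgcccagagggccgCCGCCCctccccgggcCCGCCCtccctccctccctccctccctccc
Gng12, chr6:66896147-66896396, plus strand: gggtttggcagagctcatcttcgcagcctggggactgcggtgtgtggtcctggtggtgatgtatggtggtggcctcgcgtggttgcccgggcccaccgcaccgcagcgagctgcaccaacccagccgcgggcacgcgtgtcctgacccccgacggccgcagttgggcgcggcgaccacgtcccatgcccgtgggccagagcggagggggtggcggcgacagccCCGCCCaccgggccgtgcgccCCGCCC
Rgs2, chr1:144004150-144004399, minus strand: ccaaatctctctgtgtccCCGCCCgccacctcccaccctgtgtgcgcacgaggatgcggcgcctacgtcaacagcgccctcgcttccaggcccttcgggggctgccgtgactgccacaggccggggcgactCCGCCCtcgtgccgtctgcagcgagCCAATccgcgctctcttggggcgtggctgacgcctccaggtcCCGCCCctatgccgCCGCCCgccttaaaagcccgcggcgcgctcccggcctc
Gnai1, chr5:18360414-18360663, minus strand: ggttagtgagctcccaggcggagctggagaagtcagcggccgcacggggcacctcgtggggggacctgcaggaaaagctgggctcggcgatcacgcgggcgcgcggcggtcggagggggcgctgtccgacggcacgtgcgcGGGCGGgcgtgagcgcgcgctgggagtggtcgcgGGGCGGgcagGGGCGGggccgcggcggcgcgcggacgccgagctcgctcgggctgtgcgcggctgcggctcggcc
Gng4, chr13:13783809-13784058, plus strand: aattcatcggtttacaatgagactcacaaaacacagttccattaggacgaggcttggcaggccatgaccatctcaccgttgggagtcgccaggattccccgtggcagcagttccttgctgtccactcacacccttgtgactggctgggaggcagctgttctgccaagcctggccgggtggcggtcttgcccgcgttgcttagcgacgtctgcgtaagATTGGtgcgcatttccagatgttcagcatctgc

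Gna13 and Gng12 were the pair lower in neurons and held 2 GC boxes each; of the 3 higher in neurons, Rgs2 held 4, Gnai1 held 3 and Gng4 held 0. G and C made up 76% of the Gna13 window, 74.4% of the Gng12 window, 72.4% of the Rgs2 window, 79.2% of the Gnai1 window and 56.4% of the Gng4 window. Over all member windows, several of which belong to 1 gene and can overlap, 49.02% held a GC box on either strand, against 32.74% of all 32851 promoter windows of this length. CCAAT was found in 23.53% of member windows and 33.85% of all windows, TATAAA in 17.65% and 12.37%, and the cAMP response element TGACGTCA in 0 of 51 member windows and 1.55% of all windows. These are matches to letters and not sites of binding.

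Within each class 1 or a few genes carried most of the message per length, and which ones depended on the cell type. Gnao1, the alpha subunit of Go, took 72.12% ± 6.96 (SD) of the summed alpha nRPKM in P301S and 68.93% ± 3.05 in non-Tg astrocytes. It also ranked first among neuronal alpha genes, with 22.44% ± 3.88 (P301S) and 21.39% ± 3.03 (non-Tg), followed by Gnal, Gnaq and Gnai1 at 13.24% to 14.77% (P301S) and 13.98% to 15.37% (non-Tg). Rgs20, a regulator of the RZ subfamily known to act on Gz and Gi subunits, took 72.26% ± 14.04 of the Rgs nRPKM in P301S and 68.06% ± 6.21 in non-Tg astrocytes. Among neuronal Rgs genes, Rgs7, the R7 regulator that works as a complex with Gnb5, led with 45.79% ± 6.08 in P301S and 45.49% ± 6.66 in non-Tg libraries.

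In astrocytes the beta and gamma classes were less lopsided than the alpha and Rgs classes. In neurons the first beta and gamma genes took larger shares than Gnao1 did of the alpha class. Gnb5, the divergent beta subunit that pairs with R7 Rgs proteins instead of a gamma subunit, took 49.96% ± 2.92 of the beta nRPKM in P301S neurons and 48.91% ± 6.30 in non-Tg neurons. In P301S astrocytes Gnb5 took 39.42% ± 26.28 and Gnb1, the most widespread classical beta subunit, 33.16% ± 24.39, so their order there lies within the spread. In non-Tg astrocytes Gnb1 came first with 42.93% ± 8.84, ahead of Gnb5 at 28.14% ± 6.97. Gng2 led the gamma class in neurons (39.79% ± 6.69 in P301S, 45.01% ± 6.07 in non-Tg), and Gng12, a gamma subunit known from glia and non-neural tissue, had the highest mean in astrocytes (31.04% ± 13.95 in P301S, 36.55% ± 7.96 in non-Tg). In P301S astrocytes Gng10 followed with 24.62% ± 24.66, so the order of Gng12 and Gng10 there lies within the spread.

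**Figure D1:**
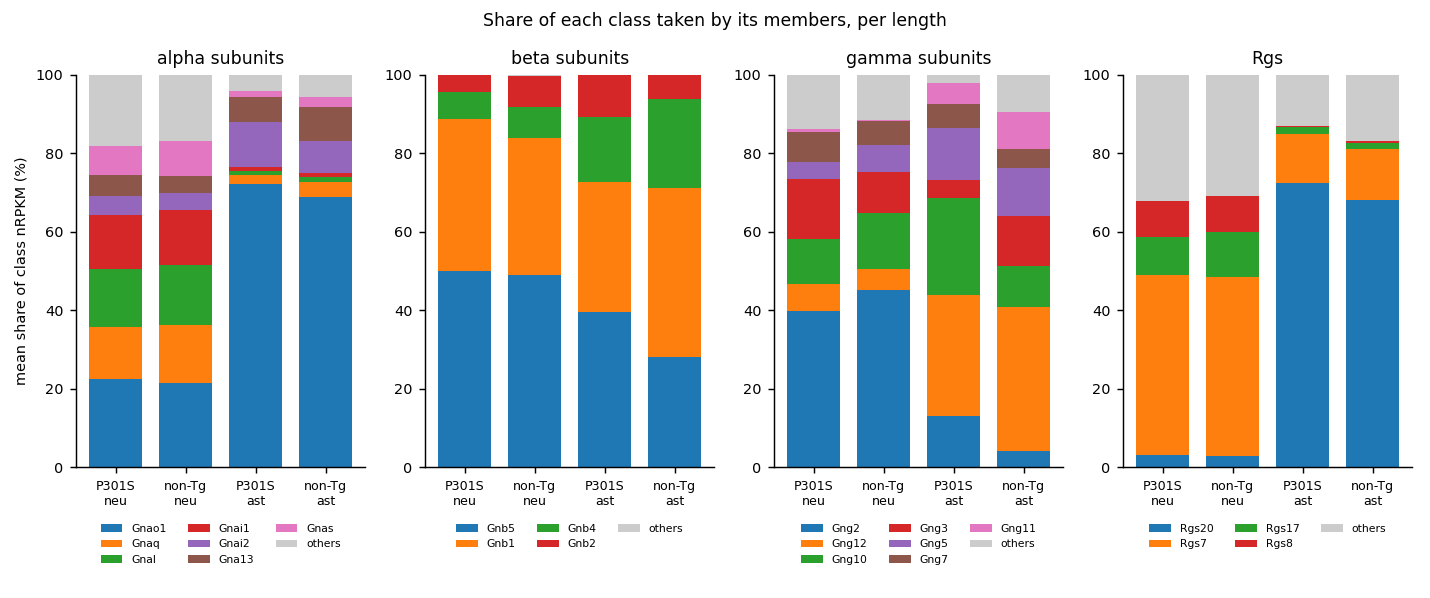
Mean share of each class's summed nRPKM (%) taken by its members in P301S neurons (n = 6), non-Tg neurons (n = 8), P301S astrocytes (n = 5) and non-Tg astrocytes (n = 6); genes that stay small in every group are summed as others. Gnao1 and Rgs20 fill most of the astrocyte bars of the alpha and Rgs classes (72.12% and 72.26% in P301S), while the neuron bars of those classes are split among more genes.

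The comparison of neurons with astrocytes asks which G protein genes each cell type uses. 35 of the 51 genes had enough counts to be tested in the fit of all 25 libraries. In P301S mice neurons had 10 of them higher and 12 lower at an adjusted p under 0.05 (edgeR quasi-likelihood test, Benjamini-Hochberg over 14197 genes), against a background of 52.3% called over all genes, 23.2% higher and 29% lower. In non-Tg mice 10 were higher and 10 lower, against a background of 46.9%, 21.8% higher and 25.1% lower. The neuron and astrocyte libraries did not overlap for 12 members in P301S (29.7% of all genes, 17% higher and 12.7% lower) and for 16 in non-Tg mice (31.2% of all genes, 15.7% higher and 15.4% lower). Members were thus called at a share of 62.9% in P301S and 57.1% in non-Tg, which was not tested against the background. The fit of all libraries shares 1 spread per gene among the groups. The median member coefficient of variation was 82.7% in P301S astrocytes and 21.1% in P301S neurons, and 48.6% and 36.1% in non-Tg mice. With only the compared groups in the fit, 18 of these calls were left in each genotype. None was gained in P301S, and 4 were gained in non-Tg mice. 9 genes were higher in neurons in both genotypes and 9 lower in both, and no member was called in opposite directions. Over all 14197 genes, 2447 were higher and 2946 lower in both, and only 14 were called in opposite directions. The median member log2 change was -0.25 in P301S (all genes -0.21) and 0.10 in non-Tg (all genes -0.11). In these bulk samples fewer cells of a type and less RNA per cell cannot be told apart. Neurons and astrocytes also differed in the oligodendrocyte markers given above, whose ranges do not overlap between the cell types. The same was so of 6 oligodendrocyte precursor markers (1.43 to 6.29 CPM in P301S neurons, 41.5 to 512 CPM in P301S astrocytes, 0 to 3.56 CPM in non-Tg neurons and 82.4 to 162 CPM in non-Tg astrocytes) and of 8 mural cell markers (12.6 to 17.2 CPM in P301S neurons, 47.6 to 188 CPM in P301S astrocytes, 10.3 to 18.5 CPM in non-Tg neurons and 96.2 to 169 CPM in non-Tg astrocytes). Their part in these results was not tested. A fit with microglia and oligodendrocyte markers as covariates is reported after the members. It cannot test that part, because the oligodendrocyte markers themselves separated the cell types.

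**Figure D2:**
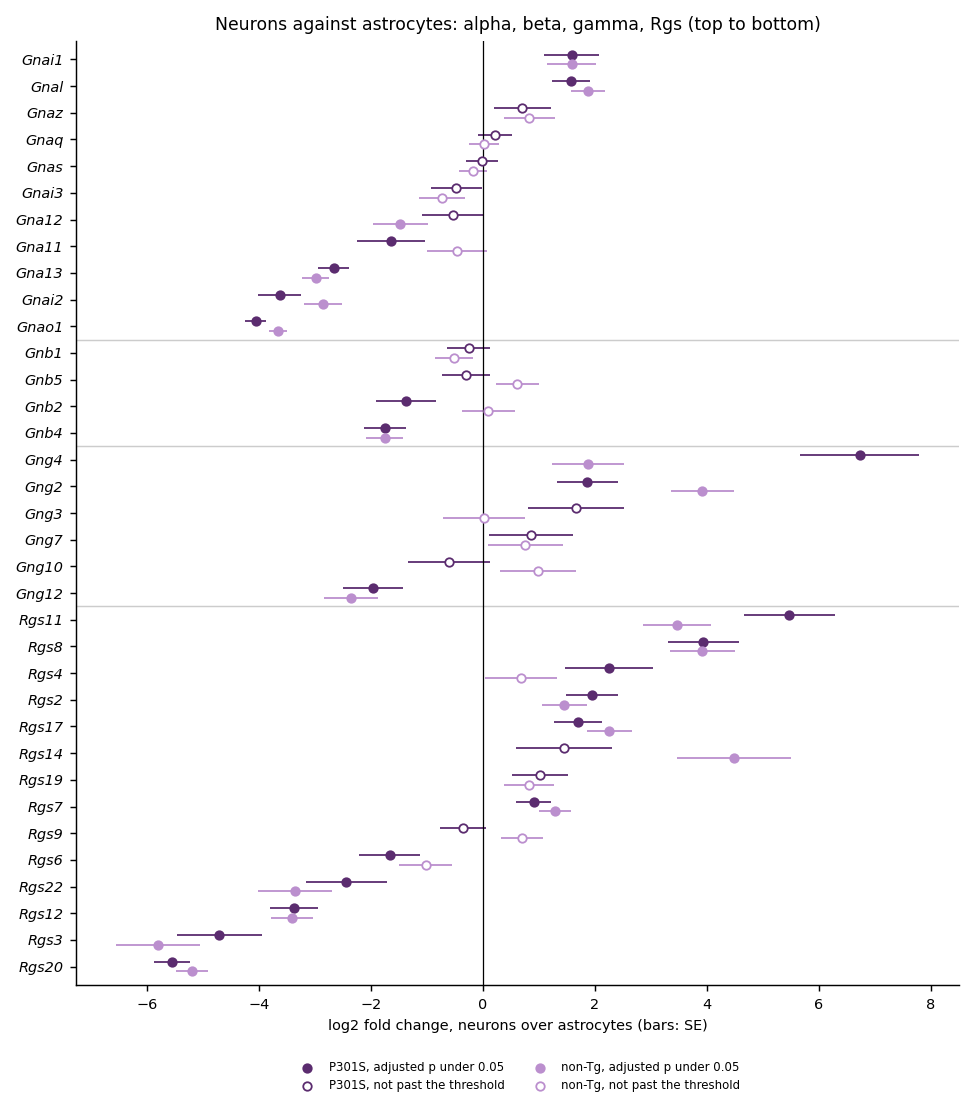
Log2 fold change of neurons over astrocytes (x axis, bars are SE) for the 35 tested members, P301S above non-Tg within each gene, with classes separated by grey lines. Filled points passed the threshold; Rgs20, Rgs3, Gnao1 and Rgs12 lie far to the left and Rgs11 and Rgs8 far to the right in both genotypes.

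Among the alpha subunits, 2 were higher and 4 lower in neurons of 11 tested in each genotype. Gnao1 had 110 to 188 CPM (median 152) in P301S neurons, against 2017, 1987, 3341, 2865 and 2279 CPM in P301S astrocytes. In non-Tg mice it had 107 to 161 CPM (median 130) in neurons, against 1349 to 1958 CPM (median 1696) in astrocytes. Every astrocyte library lay far above every neuron library, and the log2 change was -4.06 ± 0.18 (SE) in P301S (adjusted p = 2.02e-17, edgeR) and -3.66 ± 0.16 in non-Tg (adjusted p = 1.91e-18, edgeR).

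Gna13, an alpha subunit of the G12/13 branch, was also an astrocyte gene in these sorts. P301S neurons had 22.1 to 34.9 CPM (median 30.3), against 143, 325, 238, 119 and 95.7 CPM in P301S astrocytes, and non-Tg neurons had 16.01 to 26.5 CPM (median 21.5), against 132 to 200 CPM (median 176) in non-Tg astrocytes. The ranges stood apart in both genotypes (log2 change -2.66 ± 0.27, adjusted p = 6.18e-10 in P301S and -2.99 ± 0.24, adjusted p = 2.96e-12 in non-Tg, edgeR). Its relative Gna12 was near the floor in neurons, with 2.39 to 5.64 CPM in P301S neurons, 0.755 to 8.23 in P301S astrocytes, 1.07 to 4.80 in non-Tg neurons and 1.59 to 13.8 in non-Tg astrocytes. The groups overlapped, and Gna12 was called lower in neurons of non-Tg mice (log2 change -1.47, adjusted p = 0.0127, edgeR) but not of P301S mice (-0.53, adjusted p = 0.428, edgeR); the difference between those effects did not pass the test (adjusted p = 0.595).

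The 3 Gi genes, all inhibitors of adenylyl cyclase, did not follow 1 pattern. Gnai2 had 4.77 to 12.4 CPM (median 9.88) in P301S neurons, against 53.5, 136, 171, 128 and 80.0 CPM in P301S astrocytes. In non-Tg mice it had 4.44 to 13.1 CPM (median 6.13) in neurons, against 36.5 to 95.1 CPM (median 43.3) in astrocytes. No neuron library reached any astrocyte library, and Gnai2 was lower in neurons by -3.63 ± 0.39 log2 in P301S (adjusted p = 2.14e-09, edgeR) and -2.85 ± 0.34 in non-Tg (adjusted p = 1.22e-08, edgeR). Gnai1 ran the other way: P301S neurons averaged 36.9 ± 9.04 CPM and P301S astrocytes 12.05 ± 10.3 (SD, n = 6 and 5), with a log2 change of 1.59 and overlapping groups (adjusted p = 0.00712, edgeR), and in non-Tg mice every neuron library (28.8 to 46.9 CPM) lay above every astrocyte library (1.58 to 20.4 CPM). The P301S call was lost with limma voom and with the sex covariate. Gnai3 passed in neither genotype (log2 change -0.47, adjusted p = 0.403 in P301S and -0.73, adjusted p = 0.146 in non-Tg, edgeR).

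Gnal encodes the alpha subunit of Golf, which stimulates adenylyl cyclase and is known from olfactory and striatal neurons. It had 56.5 to 90.6 CPM (median 69.5) in P301S neurons, against 10.98, 37.8, 13.8, 41.5 and 16.1 CPM in P301S astrocytes. Non-Tg neurons had 51.0 to 86.5 CPM (median 70.6) and non-Tg astrocytes 9.04 to 23.8 CPM (median 20.5). The neuron libraries were above the astrocyte libraries without overlap, with P301S astrocyte replicates 2 and 4 nearest to them (log2 change 1.58, adjusted p = 0.000178 in P301S and 1.88, adjusted p = 3.99e-06 in non-Tg, edgeR). The general stimulatory subunit Gnas, whose exons overlap genes on the opposite strand, did not pass in either genotype (log2 change -0.01 in P301S and -0.17 in non-Tg), nor did Gnaq, the main activator of phospholipase C beta (0.22 and 0.03), nor Gnaz, the alpha subunit of Gz (0.71 and 0.83). Gna11, the close relative of Gnaq, was called lower in neurons of P301S mice (log2 change -1.64, adjusted p = 0.0235, edgeR), with P301S neurons at 2.60 to 7.27 CPM and P301S astrocytes scattered from 2.27 to 35.9 CPM. That call was lost without P301S astrocyte replicate 3, which had the 35.9 CPM, and also without P301S neuron replicate 6, with limma voom and with no count filter.

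**Figure D3:**
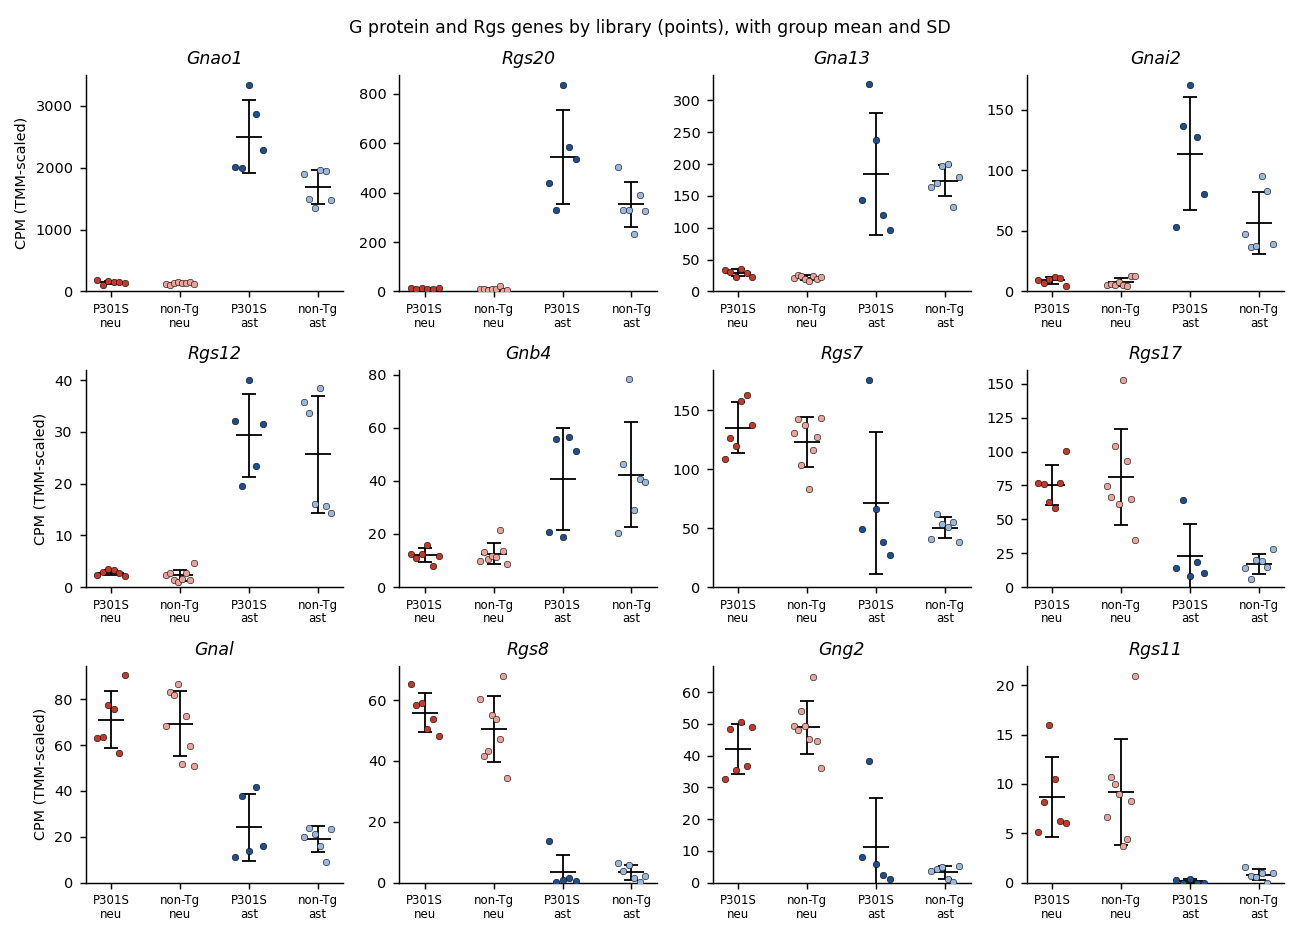
CPM (y axis, TMM-scaled) of 12 members in every library, as points, with the group mean and SD as bars, for P301S neurons, non-Tg neurons, P301S astrocytes and non-Tg astrocytes from left to right (SD bars are cut at 0). Gnao1, Rgs20, Gna13, Gnai2 and Rgs12 separate the cell types with astrocytes above; Gnal, Rgs8 and Rgs11 do so with neurons above, and single P301S astrocyte libraries stand out for Rgs7 (176 CPM), Rgs17 (64.2 CPM) and Gng2 (38.4 CPM).

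Of 4 beta genes tested, 0 were higher in neurons, 2 were lower in P301S and 1 in non-Tg mice. Gnb4, a classical beta subunit, averaged 11.96 ± 2.56 CPM in P301S neurons and 40.6 ± 19.2 CPM in P301S astrocytes, and 12.6 ± 4.02 CPM in non-Tg neurons and 42.3 ± 19.8 CPM in non-Tg astrocytes. Its log2 change was -1.75 in both genotypes (adjusted p = 0.000213 in P301S and 4.21e-05 in non-Tg, edgeR), with groups that stood apart in P301S and overlapped in non-Tg mice. Gnb2 was called lower in P301S neurons (2.90 to 4.51 CPM) than P301S astrocytes (4.22 to 17.6 CPM; log2 change -1.37, adjusted p = 0.0307, edgeR); the groups overlapped, and the call was lost with RLE factors, limma voom, other count filters, the P301S libraries alone, and without any 1 of P301S neuron replicates 2, 3, 4 and 6 or P301S astrocyte replicates 2 and 3. Gnb1 had 31.0 to 40.0 CPM in P301S neurons and 9.06 to 76.8 CPM in P301S astrocytes, and Gnb5 31.0 to 41.2 CPM in P301S neurons and 5.67 to 125 CPM in P301S astrocytes. The astrocyte range enclosed the neuron range for both genes, and neither passed in either genotype.

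Among 6 gamma genes, neurons had 2 higher and 1 lower in each genotype. Gng2 had 32.7 to 50.5 CPM (median 42.5) in P301S neurons, against 8.16, 38.4, 5.98, 2.27 and 1.12 CPM in P301S astrocytes. Non-Tg neurons had 36.0 to 64.9 CPM (median 48.7) and non-Tg astrocytes 0.292 to 5.35 CPM (median 3.85). The groups stood apart in non-Tg mice (log2 change 3.93 ± 0.56, adjusted p = 4.97e-07, edgeR), while in P301S mice astrocyte replicate 2 lay inside the neuron range (1.87 ± 0.55, adjusted p = 0.00472, edgeR). Without strand information, reads of Gng2 and of a non-coding gene opposite 20.4% of its exon bases cannot be told apart. The same holds for 24.2% of the exon bases of Gng3 and 51.6% of those of Gng13, each opposite a protein-coding gene.

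Gng4 was a low neuronal gene, with 2.82 to 7.37 CPM (median 4.84) in P301S neurons and 0 counts in all 5 P301S astrocyte libraries. Set against the floor of 3 counts over that group, it was at least 23.3-fold higher in P301S neurons (adjusted p = 5.09e-06, edgeR); the two-sided 95% counting interval, the kind given for other genes, begins at 18.5-fold. Non-Tg neurons had 0.711 to 6.57 CPM (median 3.81) and non-Tg astrocytes 0 to 2.46 CPM (median 0.493), which overlapped (log2 change 1.89, adjusted p = 0.0159, edgeR). Gng12 ran towards astrocytes, with 4.36 to 16.7 CPM (median 7.78) in P301S neurons, against 41.4, 89.8, 16.8, 4.53 and 13.8 CPM in P301S astrocytes, and 3.24 to 14.3 CPM in non-Tg neurons, against 18.1 to 47.8 CPM in non-Tg astrocytes. The groups overlapped in P301S (log2 change -1.96, adjusted p = 0.00258, edgeR) and stood apart in non-Tg mice (-2.36, adjusted p = 0.000113, edgeR). Gng3, Gng7 and Gng10 passed in neither genotype; their log2 changes ran from -0.60 for Gng10 in P301S to 1.67 for Gng3 in P301S. 72% of the exon bases of Gng10 lie in a read-through gene on the same strand, so its counts are uncertain.

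Of the 14 Rgs genes tested, 6 were higher and 5 lower in P301S neurons, and 6 higher and 4 lower in non-Tg neurons. Rgs20 had 9.55 to 13.4 CPM (median 11.8) in P301S neurons, against 438, 328, 835, 586 and 534 CPM in P301S astrocytes. Non-Tg neurons had 3.43 to 21.1 CPM (median 8.19) and non-Tg astrocytes 234 to 504 CPM (median 329). No neuron library came near an astrocyte library, and the log2 change was -5.55 ± 0.32 in P301S (adjusted p = 2.67e-15, edgeR) and -5.19 ± 0.28 in non-Tg (adjusted p = 2.11e-16, edgeR). The other RZ genes did not share that direction: Rgs17 was higher in neurons and Rgs19 passed in neither genotype (log2 change 1.03, adjusted p = 0.0851 in P301S and 0.83, adjusted p = 0.13 in non-Tg, edgeR).

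Rgs17 had 58.1 to 101 CPM (median 76.3) in P301S neurons, against 14.1, 64.2, 7.85, 18.1 and 10.5 CPM in P301S astrocytes, and 34.8 to 153 CPM (median 70.4) in non-Tg neurons, against 6.02 to 27.8 CPM (median 17.04) in non-Tg astrocytes. P301S astrocyte replicate 2 again fell among the neurons. The log2 change was 1.70 in P301S (adjusted p = 0.00147, edgeR), 2.60 without that library, and 2.26 in non-Tg (adjusted p = 1.88e-05, edgeR).

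Rgs12, a large multidomain R12 regulator, was an astrocyte gene, with 2.17 to 3.39 CPM (median 2.78) in P301S neurons, against 32.1, 19.5, 40.0, 23.4 and 31.4 CPM in P301S astrocytes. Non-Tg neurons had 1.06 to 4.57 CPM (median 1.99) and non-Tg astrocytes 14.4 to 38.4 CPM (median 24.8). The ranges stood apart in both genotypes, with log2 changes of -3.38 in P301S and -3.41 in non-Tg (adjusted p = 7.92e-08 and 4.54e-09, edgeR). The other tested R12 gene, Rgs14, known from hippocampal CA2 neurons, was low throughout, with 2.42 to 6.77 CPM in P301S neurons, against 0.563, 0, 0, 0 and 7.85 CPM in P301S astrocytes. It did not pass in P301S mice (log2 change 1.45, adjusted p = 0.153, edgeR), and passed there without astrocyte replicate 5, which had the 7.85 CPM. In non-Tg mice it had 0.711 to 7.25 CPM in neurons and 2 counts over all astrocyte libraries, a 39-fold ratio (95% counting interval 10.5 to 326; adjusted p = 0.000444, edgeR). The CPM ranges did not overlap, but they parted below the floor of 3 counts. The lowest neuron library had 1 count (0.711 CPM) and the highest astrocyte library 2 counts (0.649 CPM). In a fit of the non-Tg libraries alone, Rgs14 and Gng4 were not called, while Gnai3, Gnb1, Gnb5 and Rgs9 were.

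The R4 subfamily, small regulators of Gi and Gq subunits, was split. Rgs8, known from Purkinje and other neurons, had 48.1 to 65.4 CPM (median 56.1) in P301S neurons, against 13.8, 0.315, 0.747, 1.51 and 0.374 CPM in P301S astrocytes, and 34.5 to 67.8 CPM (median 50.5) in non-Tg neurons, against 0.292 to 6.49 CPM (median 2.91) in non-Tg astrocytes. The groups stood apart in both genotypes (log2 change 3.94, adjusted p = 4.57e-06 in P301S and 3.92, adjusted p = 1.03e-06 in non-Tg, edgeR). Without P301S astrocyte replicate 1, the 13.8 CPM library, the P301S value was 6.37.

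Rgs2, a regulator that prefers Gq, had 11.2 to 20.8 CPM (median 17.3) in P301S neurons, against 2.82, 4.09, 2.62, 4.53 and 7.48 CPM in P301S astrocytes, and 9.07 to 19.2 CPM (median 13.1) in non-Tg neurons, against 1.46 to 8.36 CPM (median 5.03) in non-Tg astrocytes. No library crossed over (log2 change 1.95, adjusted p = 0.00059 in P301S and 1.46, adjusted p = 0.0032 in non-Tg, edgeR). Rgs4, a neuronal regulator of Gi and Gq, was called higher in P301S neurons (7.26 to 21.01 CPM) than P301S astrocytes (0 to 12.1 CPM; log2 change 2.26, adjusted p = 0.0152, edgeR) but not in non-Tg mice (0.69, adjusted p = 0.407, edgeR). The groups overlapped, and the difference between the effects did not pass the test (adjusted p = 0.481). Rgs3 was the 1 tested R4 gene that was lower in neurons, with 0 to 1.13 CPM (median 0.406) in P301S neurons, against 18.6, 17.01, 20.6, 1.51 and 7.48 CPM in P301S astrocytes. Non-Tg neurons had 3 counts of Rgs3 in all, and non-Tg astrocytes had 5.39 to 17.6 CPM (median 10.8), a 69.5-fold ratio (95% counting interval 23.4 to 340). Both comparisons passed the test (adjusted p = 4.3e-06 in P301S and 7.65e-08 in non-Tg, edgeR), and P301S neurons held 6 counts in all. In a fit of the P301S libraries alone Rgs3, Rgs4 and Rgs7 were not called.

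Of 4 R7 genes, whose proteins form complexes with Gnb5, 2 were higher and 1 lower in P301S neurons, and 2 higher in non-Tg neurons. Rgs7 had 108 to 163 CPM (median 132) in P301S neurons, against 49.6, 176, 65.8, 38.5 and 27.3 CPM in P301S astrocytes, and 82.7 to 143 CPM (median 129) in non-Tg neurons, against 38.1 to 61.8 CPM (median 52.5) in non-Tg astrocytes. P301S astrocyte replicate 2 was the highest of all libraries, and the groups overlapped in P301S (log2 change 0.92, adjusted p = 0.0143, edgeR) but not in non-Tg mice (1.29, adjusted p = 0.000297, edgeR). The P301S call was lost without astrocyte replicates 3 and 4. Rgs11 had 5.08 to 15.97 CPM (median 7.201) in P301S neurons and 2 counts over the P301S astrocyte libraries, a 58.8-fold ratio (95% counting interval 15.9 to 491; adjusted p = 1.13e-06, edgeR). In non-Tg mice it had 3.74 to 20.9 CPM (median 8.62) in neurons, against 0 to 1.62 CPM (median 0.81) in astrocytes, again without overlap (log2 change 3.47, adjusted p = 1.4e-05, edgeR). Rgs9, the regulator known from the retina and striatum, passed in neither genotype (log2 change -0.35 and 0.70). Rgs6 was called lower in P301S neurons (2.24 to 6.29 CPM) than P301S astrocytes (5.98 to 17.6 CPM; log2 change -1.66, adjusted p = 0.0104, edgeR), but not in non-Tg mice (-1.02, adjusted p = 0.0792, edgeR); the difference between the effects did not pass (adjusted p = 0.732). Rgs22 was lower in neurons in both genotypes (log2 change -2.44, adjusted p = 0.00559 in P301S and -3.35, adjusted p = 6.82e-05 in non-Tg, edgeR), although P301S astrocytes ran from 0.755 to 57.6 CPM and the P301S call was lost with limma voom.

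With microglia and oligodendrocyte marker levels as covariates, 5 of the 22 P301S calls and 4 of the 20 non-Tg calls were left; over all genes that fit called 1992 in P301S and 2276 in non-Tg. Gnao1, Rgs20 and Gnb4 were among those left in both genotypes, with Gng4 and Rgs11 in P301S and Gna13 in non-Tg mice. Because oligodendrocyte markers followed cell type, this fit cannot tell glial content from cell type, for calls lost or left. P301S astrocyte replicate 2, which was high for Rgs7, Rgs17 and Gng2, also had 226 CPM summed over 7 striatal projection neuron markers, against 4.53 to 28.2 CPM in the other P301S astrocyte libraries and 14.8 to 99.0 CPM in non-Tg astrocytes. Its 10 general neuron markers, at 875 CPM, lay inside the P301S astrocyte range of 646 to 1273 CPM. The part of either in these results was not tested.

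The 16 members without enough counts did not enter the tests above. With no count filter, Rgs5, Rgs13, Gng11 and Rgs10 were called between cell types in non-Tg mice and Gng8 and Gng13 in P301S mice, all on few counts. Rgs5 had 9 counts over non-Tg neurons and 53 over non-Tg astrocytes, and Rgs10 had 56 over non-Tg neurons and 8 over non-Tg astrocytes. Rgs5, a marker of pericytes, reached at most 25 counts in 1 library, Gna14 18 and Rgs10, a regulator known from microglia, 16. The gamma genes Gng5 (14), Gng11 (11), Gng13 (11) and Gng8 (9), the R4 genes Rgs16 (8), Rgs1 (8), Rgs13 (4) and Rgs18 (4), and the hematopoietic Gna15 (6) had fewer. The photoreceptor subunits Gngt2, Gnb3 and Gngt1 reached 4, 2 and 2 counts, and Rgs21, known from taste cells, 1 count in all 25 libraries. Neighbouring Rgs genes differed in level. Rgs2 was tested and called in both genotypes, while its neighbours on chromosome 1 between 143999338 and 144775427 (GRCm38.p6), Rgs13, Rgs1, Rgs21 and Rgs18, had 15, 12, 1 and 7 counts over all libraries. Likewise Rgs8 had 1779 counts and its neighbour Rgs16 had 38, and Rgs4 had 557 and its neighbour Rgs5 72.

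The comparison of P301S with non-Tg cells asks what the transgene changed in each cell type. In astrocytes 0 of 28 members tested passed (edgeR quasi-likelihood test, adjusted over 12130 genes), against a background of 0.544% of all genes (0.519% higher, 0.0247% lower); 4 members had an unadjusted p under 0.05, and DESeq2 and limma voom also called 0. Over all genes, 1629 of 12130 had an unadjusted p under 0.05. The median member log2 change was 0.22, against 0.135 over all genes, with 18 members above and 10 below 0. Gnao1 came closest. It had 2017, 1987, 3341, 2865 and 2279 CPM in P301S astrocytes, against 1349 to 1958 CPM in non-Tg astrocytes. The groups did not overlap, which was so for 1 of the 28 members and for 2.14% of all genes (1.24% higher, 0.907% lower), and the log2 change was 0.55 ± 0.19 (adjusted p = 0.193, edgeR).

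The next genes in astrocytes by p did overlap. Gnai2 averaged 114 ± 46.7 CPM in P301S and 56.4 ± 25.7 CPM in non-Tg astrocytes (log2 change 0.997, adjusted p = 0.251, edgeR). Rgs20 averaged 544 ± 190 CPM in P301S and 352 ± 89.5 CPM in non-Tg astrocytes (0.61, adjusted p = 0.294, edgeR). Rgs9 had 44.8, 79.4, 21.7, 143 and 20.2 CPM in P301S astrocytes, against 16.9 to 45.0 CPM in non-Tg astrocytes (1.12, adjusted p = 0.347, edgeR). All 5 Gi/o alpha genes had a log2 change above 0, from 0.06 ± 0.76 (SE) for Gnai1 to 0.997 ± 0.38 for Gnai2, none of them past the threshold. Of all 12130 genes, 6881 were above 0. With all 25 libraries in 1 fit, 4 of 35 members were called in astrocytes: Gnao1 (adjusted p = 0.0257, edgeR), Gng2 and Rgs14 higher and Gng4 lower. Over all genes that fit called 1682 of 14197 in astrocytes, and the member count was not tested against this.

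Several measures of the astrocyte libraries moved with genotype. P301S libraries detected 13894 to 18997 genes and non-Tg libraries 17417 to 21050. P301S replicates 3 and 4, with the highest Gnao1 and Rgs20 levels, also had the highest oligodendrocyte marker sums, 1302 and 1071 CPM. Oligodendrocyte precursor markers summed to 282 ± 170 CPM in P301S and 104 ± 30.2 CPM in non-Tg astrocytes (SD). Of the P301S libraries, replicate 3 had the highest precursor sum (512 CPM) and replicate 4 the lowest (41.5 CPM). Without replicates 3 and 4, the Gnao1 log2 change was 0.29 (adjusted p = 0.505, edgeR) and that of Rgs20 was 0.28 (adjusted p = 0.651, edgeR). A fall was bound to follow, because these libraries were the highest for both genes. With a covariate for sex marker genes the Gnao1 and Rgs20 changes were 0.30 and 0.17, and with glial marker covariates 0.31 and 0.22. The part of these measures in the genotype values was not tested. The members were also more variable here, with a median coefficient of variation of 82.7% in P301S and 48.6% in non-Tg astrocytes (all genes 85% and 49.5%).

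In neurons 0 of 27 members passed (edgeR, adjusted over 10951 genes), against a background of 0.00913% of all genes, a single gene that was higher; 2 members had an unadjusted p under 0.05, and DESeq2 and limma voom called 0. Over all genes, 846 of 10951 had an unadjusted p under 0.05. The median member log2 change was 0.14, against -0.02 over all genes, with 20 members above and 7 below 0. Of all genes, 5062 were above and 5889 below 0. The groups did not overlap for 0 members and for 0.21% of all genes (0.119% higher, 0.0913% lower). Gna13 had 22.1 to 34.9 CPM (median 30.3) in P301S neurons and 16.01 to 26.5 CPM (median 21.5) in non-Tg neurons, which overlapped (log2 change 0.40 ± 0.16, adjusted p = 0.59, edgeR). Gnai3 had 14.5 to 20.6 CPM (median 18.7) in P301S neurons and 12.1 to 16.3 CPM (median 13.3) in non-Tg neurons (0.37 ± 0.16, adjusted p = 0.612, edgeR). Gnb1 (log2 change 0.27, adjusted p = 0.699) and Rgs4 (0.47, adjusted p = 0.723) followed. The 5 Gi/o alpha genes had log2 changes above 0, from 0.08 to 0.37, none past the threshold. They were not tested as a set in either cell type. Neuron libraries differed in subtype markers: 6 dentate granule neuron markers summed to 276 to 440 CPM in P301S neurons and 416 to 712 CPM in non-Tg neurons. Inhibitory neuron markers, 8 in all, summed to 110 to 221 CPM in P301S and 67.6 to 138 CPM in non-Tg neurons. Summed astrocyte markers ran from 477 to 733 CPM in P301S and 350 to 692 CPM in non-Tg neurons. Summed microglia markers ran from 85.0 to 401.5 CPM in P301S and 30.65 to 184 CPM in non-Tg neurons. The part of these markers in these values was not tested. The median coefficient of variation of the members was 21.1% in P301S neurons and 36.1% in non-Tg neurons.

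**Figure D4:**
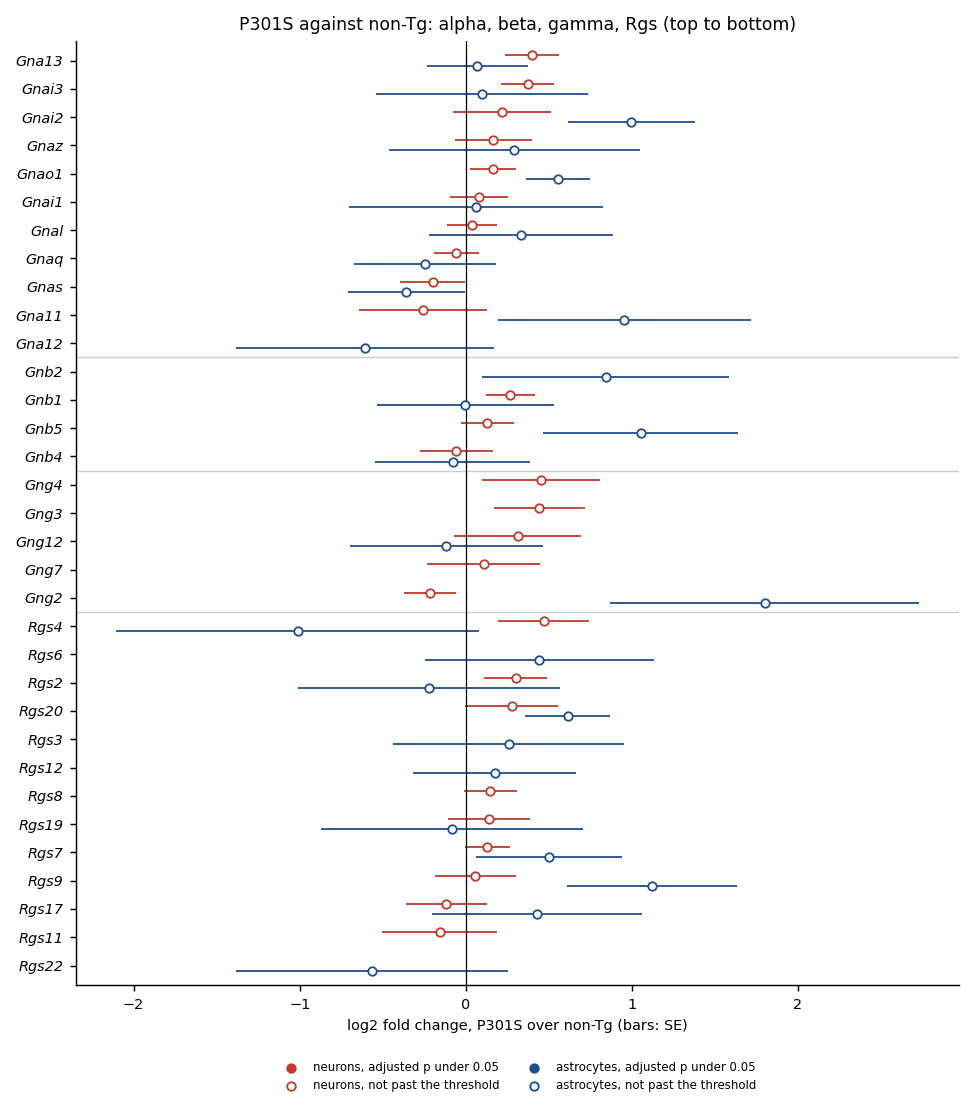
Log2 fold change of P301S over non-Tg (x axis, bars are SE) for every member tested in neurons (red) or astrocytes (blue), with classes separated by grey lines. No point is filled, as none passed the threshold; astrocyte bars are wider than neuron bars, and Gnao1 (0.55 in astrocytes) has among the narrowest of the astrocyte bars.

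Whether the genotype effect differed between astrocytes and neurons was tested in the fit of all libraries. 0 of 35 members passed (edgeR), against a background of 0.394% of 14197 genes (0.204% higher, 0.19% lower); 5 members had an unadjusted p under 0.05, limma voom called 0 and DESeq2 called Gng4. Over all genes, 2106 of 14197 had an unadjusted p under 0.05. The genotype effect on Gng4 was 4.85 log2 lower in astrocytes than neurons (adjusted p = 0.0618, edgeR), a fitted value that rests on 0 counts in P301S astrocytes and at most 2.46 CPM in non-Tg astrocytes. It passed without P301S astrocyte replicate 1 (adjusted p = 0.044, edgeR), as Gng3 and Rgs8 then did, and without non-Tg astrocyte replicate 5 (adjusted p = 0.0477, edgeR). For Gng2 the astrocyte effect was higher by 2.05 log2 (adjusted p = 0.162, edgeR), and by 0.74 without P301S astrocyte replicate 2, the 38.4 CPM library; it passed without P301S astrocyte replicates 3 and 4 (2.57, adjusted p = 0.0493, edgeR). For Rgs14 it was higher by 3.03 (adjusted p = 0.252, edgeR), and by 0.06 without P301S astrocyte replicate 5. Gnb2 followed with 1.47 (adjusted p = 0.331, edgeR).

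The receptors, effectors and anchors around the G proteins were taken from lists of 98 genes, 76 of which were tested. In P301S mice 31 were higher and 28 lower in neurons (77.6% called, against 52.3% of all genes), and in non-Tg mice 31 higher and 24 lower (72.4%, against 46.9% of all genes). The same backgrounds apply to the counts by list that follow, which were not tested against them. Of the GIRK channels, the potassium channels that beta-gamma opens, 3 of 3 tested were higher in both genotypes, and Kcnj6 averaged 114 ± 12.6 CPM in P301S neurons against 1.22 ± 1.18 in P301S astrocytes, and 115 ± 25.0 CPM in non-Tg neurons against 3.33 ± 2.07 in non-Tg astrocytes (log2 change 6.40, adjusted p = 1.39e-12 and 5.07, adjusted p = 1.71e-12, edgeR). Of 4 phospholipase C beta genes 2 were lower in P301S neurons and 3 in non-Tg neurons, among them Plcb4 (log2 change -2.49 and -2.72), and none was higher; of 3 exchange factors that Gna12 and Gna13 activate, 3 were lower in P301S and 1 in non-Tg neurons, with Arhgef12 at 136 ± 19.9 CPM in P301S neurons against 505 ± 104 in P301S astrocytes (log2 change -1.89, adjusted p = 8.35e-10, edgeR).

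Of 3 Rgs anchoring genes, neurons had 2 higher and 1 lower in each genotype. Rgs7bp, the membrane anchor of R7 complexes, had a log2 change of 2.79 in P301S (adjusted p = 5.22e-05, edgeR) and 2.81 in non-Tg (adjusted p = 1.03e-05, edgeR), and the orphan receptor Gpr158, which recruits Rgs7, 1.07 (adjusted p = 0.00337) and 1.43 (adjusted p = 5.11e-05). Gpr179, known from retinal bipolar cells, was lower in neurons in both. Of 8 adenylyl cyclases tested, 4 were higher and 1 lower in P301S neurons and 3 higher and 1 lower in non-Tg neurons, led by the calcium-stimulated Adcy1 (log2 change 3.77 and 3.88). Of 7 receptor kinases and arrestins 3 were lower in neurons in each genotype, with Grk3 at -2.47 in P301S and -1.98 in non-Tg. Of 6 G protein chaperones and nucleotide exchange regulators 4 were lower in P301S neurons and 1 in non-Tg neurons, among them Gpsm1, which binds Gi subunits (-3.05 and -2.14).

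Receptors of every coupling class lay on both sides. Of 21 Gi/o-coupled receptors tested, 11 were higher and 6 lower in P301S neurons, and 12 higher and 5 lower in non-Tg neurons; the metabotropic glutamate receptors Grm7 (log2 change 5.74 in P301S and 5.49 in non-Tg) and Grm3 (-3.08 and -4.18) lay on opposite sides. Of 13 Gq/11-coupled receptors 6 were higher and 5 lower in P301S and 6 higher and 7 lower in non-Tg neurons, with Grm5 higher (3.09 and 4.42) and the endothelin receptor gene Ednrb lower (-6.02 and -8.06). Of 8 Gs-coupled receptors 5 were higher and 3 lower in P301S and 5 higher and 2 lower in non-Tg neurons, with the serotonin receptor Htr4 higher (4.78 and 7.13) and Adcyap1r1, the PACAP receptor, lower (-2.23 and -2.25). For genotype, edgeR called 0 of 53 tested list genes in astrocytes, 0 of 57 in neurons and 0 of 76 in the difference between them, and 5, 5 and 16 had an unadjusted p under 0.05. Over all genes, 1629 of 12130, 846 of 10951 and 2106 of 14197 did so in the same order. The smallest p of a list gene in astrocytes was that of Adora1, the Gi-coupled adenosine receptor, at 172 ± 124 CPM in P301S and 47.7 ± 13.4 CPM in non-Tg astrocytes (log2 change 1.83, adjusted p = 0.0647, edgeR). In neurons it was that of Plcb4, at 44.4 ± 9.02 CPM in P301S and 24.9 ± 5.58 CPM in non-Tg neurons (0.83, adjusted p = 0.132, edgeR).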

How the data were processed

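The authors deposited, per library, a count of uniquely aligned reads for each gene and an RPKM value normalized with size factors, per the file headers. Per the submitters' processing notes GSNAP and GRCm38 were used; neither their versions nor gene models or strandedness are stated. Deposited RPKM equalled count times 1 factor per sample and 1 per gene (largest relative deviation 9.99e-15) and served only for shares within a class. Of 36528 Entrez IDs, 5479 had no symbol match; they held 3.30% of counts and were kept, subject to the same count filter.

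Genotype was tested within each cell type, and neurons against astrocytes and the difference of genotype effects in a joint fit of the 25 libraries with 4 group means, by the edgeR 4.0.16 quasi-likelihood F test (R 4.3.3, TMM, filterByExpr, robust), with Benjamini-Hochberg adjustment over all genes tested and calls at an adjusted p under 0.05. SE is the log2 change divided by the square root of F. The fits were tested on simulated counts, drawn with 1 spread per gene for all groups. That cannot check them under the unequal spread of these groups. Alternatives were RLE factors, DESeq2 1.42.0, limma 3.58.1 voom with sample weights, other filters, covariates, other sample sets and leaving out each library. Counting intervals and floors cover counting error only. RefSeq promoter windows and GENCODE M21 exon overlaps were read from tables.

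The members and gene lists were chosen with earlier results of these data known. Values by library are given for the 6 called members per direction with the smallest p between cell types, the 4 with the smallest p between genotypes, and each class's highest gene per length; other members by range and change. List genes are named where among the 3 with the smallest p in a direction. Genes outside this rule, Adora1 and Plcb4 between genotypes among them, were taken by smallest p after their values were seen.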

Additional observations from a re-analysis of the deposited data

Results flagged for a closer look

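Of 83 sets of values examined (22 named genes, within groups of 5 to 8 libraries, with over 3 counts in at least 1 library), 8 had 1 library far from the others by Dixon's test; chance flags about 1 in 20. P301S astrocyte replicate 2 stood out in 3 of them: it had 38.4 CPM of Gng2 (next highest 8.16), 64.2 CPM of Rgs17 (next 18.1) and 176 CPM of Rgs7 (next 65.8). The other P301S astrocyte cases were Rgs14 in replicate 5 with 7.85 CPM, Rgs4 in replicate 4 with 12.1 CPM and Rgs8 in replicate 1 with 13.8 CPM. Among non-Tg neurons, Rgs11 had 20.9 CPM in replicate 8 and Rgs20 had 21.1 CPM in replicate 6.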

How the results depend on the processing

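No paired analysis was possible because the labels carry no replicate numbers or animal identities that join libraries across groups. For the members with the smallest p in each comparison, no log2 change changed sign under any alternative run. No member call changed direction either. The sign of other log2 changes was not part of that check. Alternatives also added member calls between cell types. In non-Tg mice limma voom added Gnai3, Gnaz, Gnb5, Rgs6 and Rgs19, and DESeq2 added Gnaz, Rgs9 and Rgs19. In P301S mice limma voom added Rgs14, and DESeq2 added Gng3 and Rgs19. Member calls moved by more than 1.5 times in these cases: 4 in astrocytes by genotype with all libraries in 1 fit (0 in a fit of astrocytes alone); 1 in the difference of genotype effects with DESeq2 and 1 without P301S astrocyte replicates 3 and 4, an alternative chosen after seeing the data; and, with glial marker covariates, 5 of 22 in P301S and 4 of 20 in non-Tg cell type comparisons; the cause was not tested. Over all genes, the astrocyte genotype calls (66) were 441 with DESeq2, 119 with voom, 561 with no filter, 15 with the sex covariate, 6 with glial covariates, 1682 with all libraries in 1 fit and 42 without P301S astrocyte replicates 3 and 4. Neuron genotype calls (1) were 49 with DESeq2, 41 with voom, 17 with no filter, 10 with a filter at 1 CPM, 0 with glial covariates and 38 without the 2 non-Tg neuron libraries whose identifiers come from a separate range. Calls of the difference (56) were 425 with DESeq2, 10 with voom, 30 with glial covariates, 12 without those 2 libraries and 266 without P301S astrocyte replicates 3 and 4. Cell type calls were 2276 (non-Tg) and 1992 (P301S) with glial covariates, and 4925 in P301S with its own groups alone. Leaving out 1 library gave 27 to 136 genotype calls in astrocytes, 0 to 23 in neurons and 9 to 522 for the difference, with 0 to 3 members; member calls between cell types ran from 20 to 25 in P301S and 20 to 22 in non-Tg. Depth limits Gng4, Rgs3, Rgs11 and Rgs14, each with 3 counts or fewer over 1 whole group.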
